A study of Mus musculus with 2 samples.

Results

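The miR-106b/93/25 cluster is a group of 3 microRNA hairpins, miR-106b, miR-93 and miR-25, that lie together in an intron of the mouse gene Mcm7. Its members were taken by name and are the 5p and 3p arms of the 3 hairpins, 6 of the 1909 mature microRNAs listed in both processed files. Small RNA was sequenced from cultured aortic vascular smooth muscle cells, with 1 library from type 2 diabetic db/db mice (genetic background labelled BKS.Cg-m+/+Leprdb/J) and 1 library from control db/+ mice, which carry Lepr+/-. The mice were males aged 10 to 12 weeks, the cells came from the thoracic aorta, and the culture medium was DMEM/F-12 with antibiotics and fetal bovine serum at 10%. The sources used here do not say how many mice or cultures entered a library. With 1 library per group no p-value could be computed, and genotype cannot be told apart from culture or library.

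MicroRNAs are cut from longer transcripts by the nucleases Drosha and Dicer, which leave a short duplex of a 5p and a 3p arm. One arm is usually kept in an Argonaute protein and pairs with messenger RNAs mainly through its seed, the bases after the first. The host gene Mcm7 encodes a subunit of the replicative DNA helicase and is transcribed in dividing cells under E2F control. In human cancer cells miR-106b and miR-93 are known to restrain the cell cycle inhibitor p21 (CDKN1A), and miR-25 the pro-apoptotic protein BIM (BCL2L11). The cluster is a paralog of the growth-promoting miR-17-92 cluster.

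The db/db library held 24295112 counts over 833 detected microRNAs, and the db/+ library 25915732 counts over 881. Levels are given as CPM, counts scaled to a library total of 1000000. A microRNA with 0 counts could have a level of up to 3 counts, which is 0.123 CPM in db/db and 0.116 CPM in db/+. Among marker microRNAs of smooth muscle (miR-143 and miR-145a arms), 4 of 4 were detected, with sums of 1567 CPM in db/db and 1656 CPM in db/+. Endothelial markers summed to 2.92 CPM in db/db and 0.309 CPM in db/+, with miR-126b-5p at 0 in both, and epithelial markers to 0.906 CPM in db/db and 0.270 CPM in db/+. Blood markers summed to 0.659 CPM in db/db and 0.695 CPM in db/+, with miR-223-3p, miR-142a-3p and miR-144-3p at 0 in both. Skeletal and heart muscle markers summed to 2833 CPM in db/db and 2509 CPM in db/+, with miR-208a-3p at 0 in both. Nearly all of this was miR-206-3p, at 2764 CPM in db/db and 2473 CPM in db/+. miR-1a-3p had 68.5 CPM in db/db and 35.5 CPM in db/+, and miR-133a-3p had 1 count in each library. The part of these other cell types in the results below was not tested.

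The mature sequences are given first because they set which messenger RNAs each arm can pair with. They are from RefSeq on GRCm38.p6, the assembly that mm10 names, written 5′ to 3′ with the seed, bases 2 to 8, in capitals.
mmu-miR-106b-5p: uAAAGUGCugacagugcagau
mmu-miR-93-5p: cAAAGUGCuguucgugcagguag
mmu-miR-25-3p: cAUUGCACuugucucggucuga
mmu-miR-106b-3p: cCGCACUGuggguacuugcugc
mmu-miR-93-3p: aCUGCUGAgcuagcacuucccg
mmu-miR-25-5p: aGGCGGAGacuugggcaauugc
The prefix mmu, for mouse, is left out from here on. miR-106b-5p and miR-93-5p share the seed AAAGUGC. The other 4 arms each have a seed of their own within the cluster.

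The hairpins are shown because the comparison of arms rests on them. Capitals mark the 5p arm, on the left, and the 3p arm, on the right.
Mir106b: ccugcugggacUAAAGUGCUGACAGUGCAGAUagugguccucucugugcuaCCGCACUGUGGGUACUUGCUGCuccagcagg
Mir93: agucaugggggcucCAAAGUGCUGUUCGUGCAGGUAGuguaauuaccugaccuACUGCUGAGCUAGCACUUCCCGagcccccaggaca
Mir25: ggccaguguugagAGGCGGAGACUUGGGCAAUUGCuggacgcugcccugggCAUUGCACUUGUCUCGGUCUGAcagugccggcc
In the order of transcription, on the minus strand, Mir106b lies at chr5:138165737-138165818, Mir93 at chr5:138165523-138165610 and Mir25 at chr5:138165321-138165404. All 3 lie in intron 13 of the 15-exon Mcm7 transcript of GENCODE M21, an intron of 748 bases. Mir106b starts 91 bases into the intron, gaps of 126 and 118 bases separate the hairpins, and together they span 498 bases. Each of the 6 arms has 1 source hairpin in the RefSeq table, and no other name in the files had the same counts in both libraries.

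The 3 hairpins, cut from the same intron, differed widely in level, and the last of them was by far the most abundant. The miR-25 hairpin, both arms summed, had 2939 CPM in db/db and 2217 CPM in db/+. The miR-93 hairpin had 120.9 CPM in db/db and 126.6 CPM in db/+, and the miR-106b hairpin 58.7 CPM in db/db and 59.5 CPM in db/+. In both libraries the level thus ordered as miR-25, miR-93, miR-106b, with gaps between neighbours far wider than counting error.

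**Figure D1:**
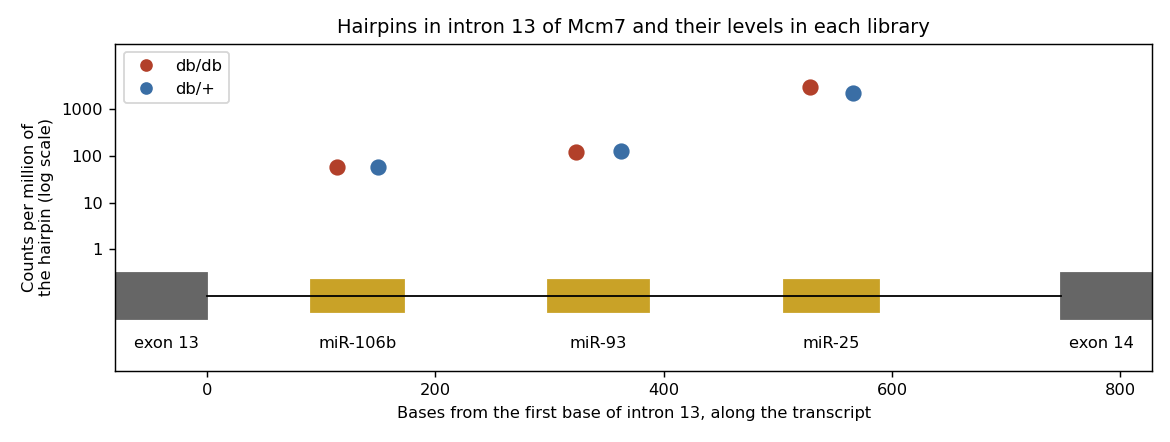
Map of intron 13 of Mcm7, in bases along the transcript, with the hairpins to scale as boxes and the ends of the flanking exons in grey; points above each hairpin give its level, both arms summed, in CPM on a log scale in the db/db and db/+ libraries. The miR-25 hairpin stands at 2939 CPM in db/db and 2217 CPM in db/+, and the points of the other hairpins nearly coincide between libraries.

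The cluster as a whole was higher in the db/db library, and the excess lay in miR-25. The 6 arms summed to 75766 counts in db/db, 0.312% of that library, and 62275 in db/+, 0.240%. The ratio of CPM was 1.30, with an exact 95% counting interval of 1.28 to 1.31. Without miR-25-3p the remaining 5 arms had 9545 counts in db/db and 9273 in db/+, a ratio of 1.10 (1.07 to 1.13). Summed by hairpin, the ratio was 1.33 (1.31 to 1.34) for miR-25, 0.955 (0.908 to 1.004) for miR-93 and 0.986 (0.917 to 1.06) for miR-106b, and the last 2 intervals include 1. These intervals, like all others here, treat every read as an independent count and leave out variation between cultures and libraries. Because reads are PCR copies without molecular identifiers, the intervals may be too narrow even for counting error.

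The makeup of the cluster shifted accordingly. miR-25 made up 94.2% of the cluster's counts in db/db (95% interval 94.1 to 94.4) and 92.3% in db/+ (92.0 to 92.5). miR-93 made up 3.88% in db/db (3.74 to 4.02) and 5.27% in db/+ (5.09 to 5.45). miR-106b made up 1.88% in db/db (1.79 to 1.98) and 2.48% in db/+ (2.36 to 2.601). These shares do not depend on how the libraries are scaled to each other.

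Among the leading arms, those with more counts over both libraries, miR-25-3p carries the AUUGCAC seed and was the most abundant member. It had 66221 counts in db/db (2726 CPM) and 53002 in db/+ (2045 CPM), and ranked 22nd of all microRNAs in db/db and 23rd in db/+. Its ratio was 1.33 (1.32 to 1.35), higher than that of 81.5% of the 356 microRNAs that reached 50 counts in either library. The second leading arm, miR-93-5p, had 2929 counts in db/db (120.6 CPM) and 3277 in db/+ (126.4 CPM), a ratio of 0.953 with an interval of 0.907 to 1.002. The libraries were within counting error for miR-93-5p, and its ratio lay between 0.993 and 1.02 under the 5 other scalings of the libraries that were tried. The third, miR-106b-5p, was lower in db/db. It had 659 counts in db/db (27.1 CPM) and 1000 in db/+ (38.6 CPM), a ratio of 0.703 (0.636 to 0.776).

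The passenger strand of a hairpin is usually degraded. Here the other arms, those with fewer counts over both libraries, are called passenger arms, although miR-106b-3p outnumbered miR-106b-5p in db/db. Of these, miR-25-5p was well represented, with 5183 counts in db/db (213 CPM) and 4450 in db/+ (172 CPM), a ratio of 1.24 (1.19 to 1.29). It thus outnumbered both arms that carry the AAAGUGC seed. miR-106b-3p had 766 counts in db/db (31.5 CPM) and 542 in db/+ (20.9 CPM), a ratio of 1.51 (1.35 to 1.69), which exceeded that of 87.1% of the 356 microRNAs. miR-93-3p was near the limit of detection, with 8 counts in db/db and 4 in db/+, and its ratio of 2.13 has an interval of 0.572 to 9.68.

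**Figure D2:**
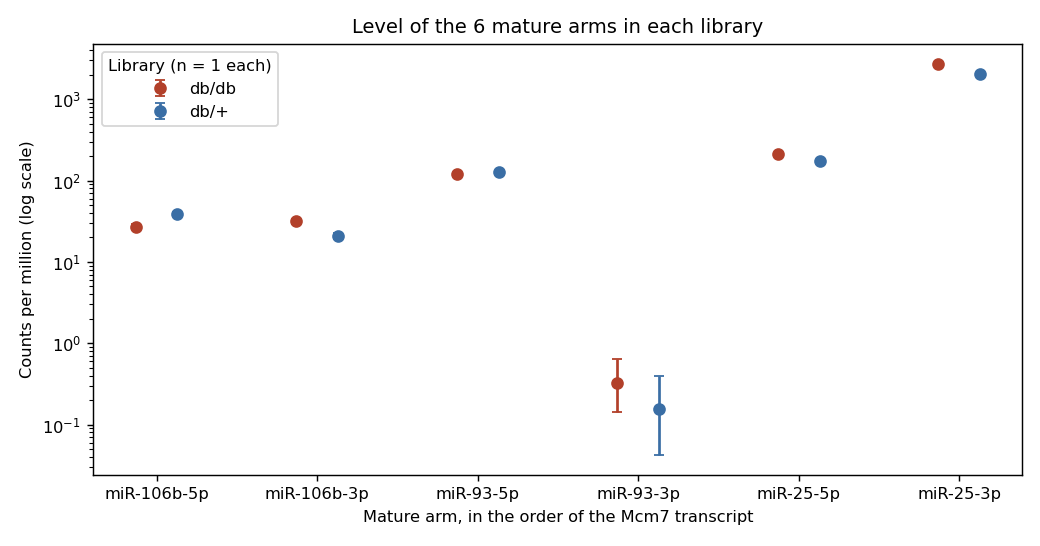
Level of each arm in CPM on a log scale in the db/db and db/+ libraries, 1 library each, with 95% counting intervals (smaller than the points for most arms). miR-25-3p is highest in both libraries, at 2726 CPM in db/db and 2045 CPM in db/+, and the 2 arms of miR-106b change places between libraries.

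Of the 6 members 5 passed the floor of 50 counts in at least 1 library, and miR-93-3p did not. Of these 5, 0 had a ratio of at least 2 or at most 0.5, against 18.0% of the 356 microRNAs past the floor. Ratios lay above 1 for 3 of the 5 (miR-25-3p, miR-25-5p and miR-106b-3p), against 43.0% of the 356, and below 1 for miR-106b-5p and for miR-93-5p, which had a ratio of 1.01 to 1.02 under 4 of the 5 other scalings. The median log2 ratio of the 5 was 0.31, and that of the 356 was -0.14, with 0.5 counts added to each count. The share of the 356 with a ratio of at least 1.5 was 13.5%, and miR-106b-3p was the 1 member in that range.

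**Figure D3:**
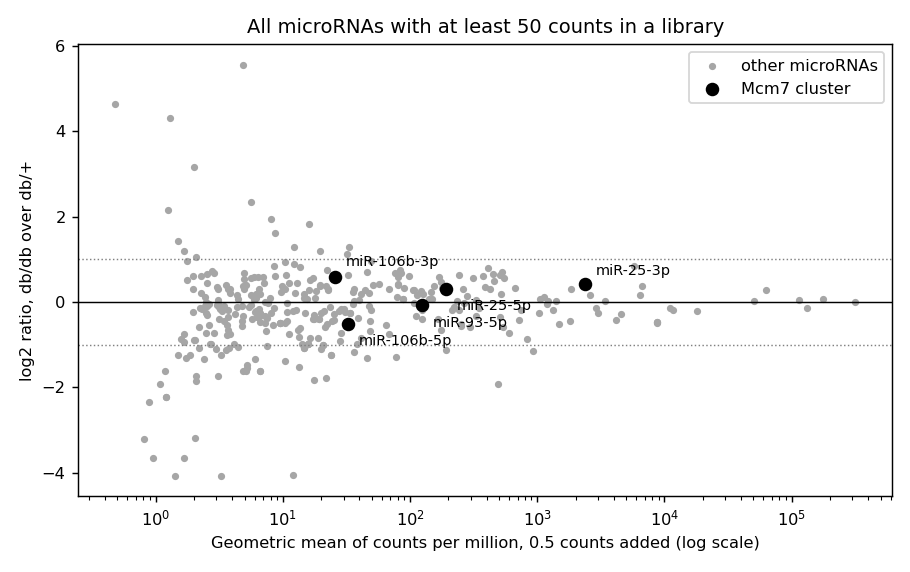
The log2 ratio of db/db over db/+ against the geometric mean level in CPM for all 356 microRNAs that reached 50 counts in either library; the cluster's 5 members past that floor are black and dotted lines mark 2-fold. All 5 members lie inside the 2-fold lines, with miR-106b-3p at 0.59 and miR-106b-5p at -0.51.

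The 2 arms of miR-106b went in opposite directions while their sum stayed level. As counted, the 3p arm was the major one in the db/db library and the 5p arm in the db/+ library. This did not hold when a trend on GC content was removed from the db/db values alone. Of the hairpin's counts, 46.2% lay on the 5p arm in db/db (95% interval 43.6 to 48.9, 1425 counts) and 64.9% in db/+ (62.4 to 67.2, 1542 counts), a difference of -18.6 percentage points. Put as a ratio within each library, miR-106b had 1.16 counts of 3p for each count of 5p in db/db and 0.542 in db/+. The quotient of these ratios, which needs no scaling between libraries, was 2.14 (1.85 to 2.49).

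In the other hairpins of the cluster the shares differed by less than 1 percentage point. miR-25 had 7.26% of its counts on the 5p arm in db/db (7.07 to 7.45) and 7.75% in db/+ (7.53 to 7.97), a quotient of 3p to 5p of 1.07 (1.03 to 1.12). miR-93 had 99.7% on the 5p arm in db/db (99.5 to 99.9) and 99.9% in db/+ (99.7 to 99.97), and the quotient of 2.24 (0.599 to 10.2) rests on the few counts of miR-93-3p. The 5p share was thus lower in db/db in 3 of 3 hairpins, as in 47.5% of the 204 hairpins whose arms summed to 50 counts or more in each library, and for miR-93 the intervals overlap.

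Among those 204 hairpins, 9.80% had a 5p share that differed by at least 10 percentage points, and miR-106b was the 1 hairpin of the cluster that did so. Its difference in points had rank 4 in size among the 204 and rank 2 among the 85 with at least 1000 counts in each library, of which 5.88% differed by at least 10 points. On the log2 scale of the quotient, which does not favour hairpins with balanced arms, it ranked 57th of the 204 and 18th of the 85. That scale can favour hairpins with few counts on 1 arm. On it miR-93, with 8 counts of its 3p arm in db/db and 4 in db/+, ranked 59th and 19th. The major arm differed between libraries in 3.92% of the 204 and in 7.06% of the 85. The arms' ratios had counting intervals on opposite sides of 1 in 10.8% of the 204 and in 20% (17) of the 85, counts chosen after the values of miR-106b were seen.

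With at least 1000 counts in each library, the hairpins nearest to miR-106b in their change of 5p share were miR-299a, miR-299b and miR-17. The share was 39.9% in db/db and 51.8% in db/+ for miR-299a, and miR-299b had nearly the same counts as miR-299a. miR-17, of the paralogous cluster, had 58.1% in db/db (54.98 to 61.1) and 67.6% in db/+ (65.6 to 69.6). At that depth the smallest change past 10 points was that of miR-299b, at -11.8 points, and the largest short of it that of miR-17, at -9.53 points.

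GC content moved with the ratio in these libraries. Over the 286 microRNAs past the floor with a RefSeq sequence (80.3% of the 356), the log2 ratio was 0.0251 higher for each added percentage point of GC, with a Spearman rho of 0.38, given as a description since all points share the same 2 libraries. The arms of miR-106b are unlike in this respect, with 63.6% GC in the 3p arm and 42.9% in the 5p arm. With that linear trend removed, the ratio was 1.18 for miR-106b-3p and 0.787 for miR-106b-5p, and the quotient was 1.49. For the shares the trend was taken out of the db/db values alone, and the db/+ share is as counted. The 5p share, 55.3% in db/db against 64.9% in db/+, then differed by -9.60 points, no longer past the limit of 10 points. With db/db adjusted in this way, the 5p arm was the major arm of miR-106b in both libraries. Shares with db/+ adjusted instead were not computed, and they need not give the same major arm or difference. For miR-25-3p the ratio with the trend removed was 1.32, and for miR-25-5p, at 59.1% GC, it was 1.05. The same check over all hairpins is void, since 76.5% of the 204 had both sequences.

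**Figure D4:**
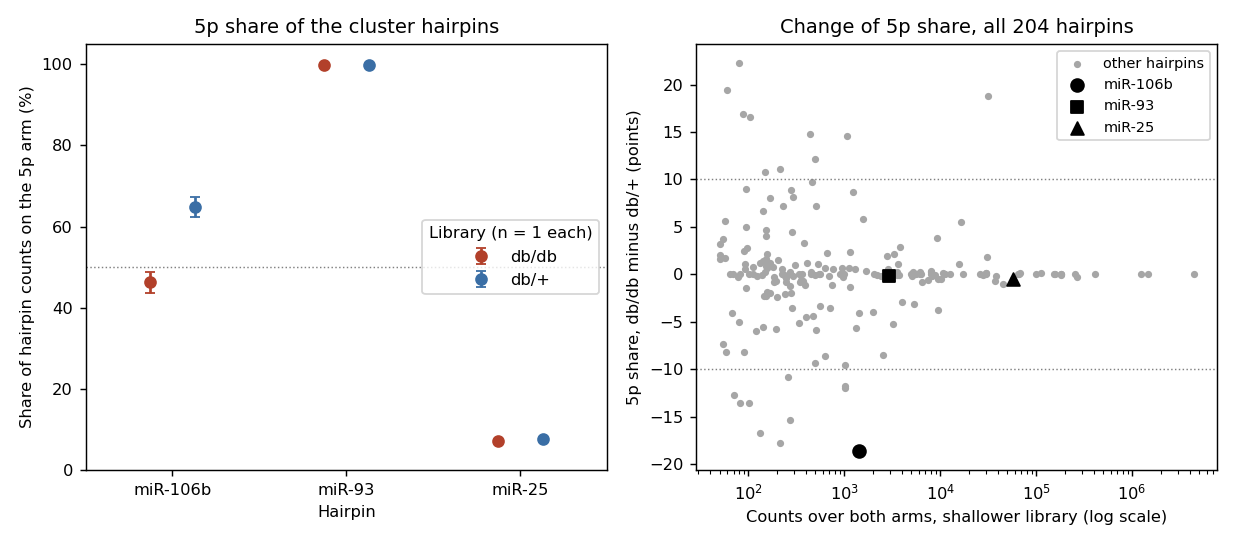
Left, share of each hairpin's counts on the 5p arm in the db/db and db/+ libraries with 95% counting intervals; right, the difference in that share, db/db minus db/+, against depth for 204 hairpins, with dotted lines at 10 points. miR-106b crosses the 50% line, at 46.2% in db/db and 64.9% in db/+, and lies at -18.6 points.

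The leading arms share their seeds with relatives from other loci, which are shown with the seed in capitals.
miR-17-5p: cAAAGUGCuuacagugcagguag
miR-20a-5p: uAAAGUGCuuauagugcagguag
miR-92a-3p: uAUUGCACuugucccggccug
Over 21 bases, and counting from 1 at the 5′ end of miR-106b-5p, miR-17-5p differed from it by U1C, G10U and A20G, and miR-20a-5p by G10U, C12U and A20G. miR-92a-3p differed from miR-25-3p by C1U, U14C and U18C. The sources used here do not say how reads matching more than 1 name were assigned, so values of these near relatives may share reads.

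Within the AAAGUGC seed the Mcm7 arms took a larger part in db/db, where the Mir17hg arms were lower. The names with this seed summed to 185.6 CPM in db/db and 249.2 CPM in db/+, a ratio of 0.745 (0.717 to 0.774). miR-93-5p and miR-106b-5p together held 79.6% of these counts in db/db (78.3 to 80.7) and 66.2% in db/+ (65.0 to 67.4). Their summed ratio was 0.895 (0.856 to 0.936), while miR-17-5p and miR-20a-5p, from the Mir17hg transcript on chromosome 14, summed to a ratio of 0.451 (0.417 to 0.487).

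Ratios within each library show the same split without scaling. For each count of miR-17-5p there were 4.97 counts of miR-93-5p in db/db and 2.30 in db/+, a quotient of 2.16 (1.93 to 2.41). For miR-106b-5p over miR-17-5p the values were 1.12 in db/db and 0.703 in db/+, a quotient of 1.59 (1.38 to 1.83). Against miR-20a-5p the quotients were 2.04 (1.77 to 2.35) for miR-93-5p and 1.504 (1.28 to 1.78) for miR-106b-5p. All 4 intervals lie above 1. The 2 Mcm7 arms also differed from each other, with 4.44 counts of miR-93-5p per count of miR-106b-5p in db/db and 3.28 in db/+, a quotient of 1.36 (1.21 to 1.52). They differ in GC content too, with 52.2% in miR-93-5p and 42.9% in miR-106b-5p. With the GC trend removed their ratios of db/db over db/+ were closer, at 0.908 for miR-93-5p and 0.787 for miR-106b-5p.

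The AUUGCAC seed was carried almost entirely by miR-25-3p in both libraries. It held 91.6% of the counts of that seed in db/db (91.4 to 91.8) and 89.2% in db/+ (89.0 to 89.5), and the seed as a whole had a ratio of 1.30 (1.28 to 1.31). The paralogous miR-92a-3p, with hairpins in Mir17hg and on chromosome X, had 237 CPM in db/db and 232 CPM in db/+, a ratio of 1.02 (0.984 to 1.06). miR-92b-3p had 289 counts in db/db and 350 in db/+, a ratio of 0.881 (0.751 to 1.03). For each count of miR-92a-3p there were 11.5 of miR-25-3p in db/db and 8.81 in db/+, a quotient of 1.31 (1.26 to 1.36).

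The paralogous Mir17hg transcript had 7 of its 12 mature names past the floor, with a median log2 ratio of -1.10. Of the 7, 4 had a ratio of at most 0.5 and 0 of at least 2, while 13.5% of the 356 were in the first range and 4.49% in the second. These 4 were miR-17-5p at 0.442, miR-20a-5p at 0.467, miR-18a-5p at 0.422 and miR-19b-3p at 0.348. With the GC trend removed miR-20a-5p was at 0.559 and so no longer in the first range. Another 3 were closer to 1, with miR-17-3p at 0.666 (0.588 to 0.753), miR-92a-1-5p at 1.24 (0.995 to 1.56) and miR-92a-3p as above. The second paralogous cluster, that of miR-106a on chromosome X, was not detected. All 10 of its names, leaving out miR-19b-3p and miR-92a-3p that Mir17hg also makes, had 0 counts in both libraries. Of all 1909 names, 942 were at 0 in both. For the 10 names this allows up to 0.123 CPM each in db/db and 0.116 CPM in db/+. These bounds leave aside reads that may have been assigned to near relatives.

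**Figure D5:**
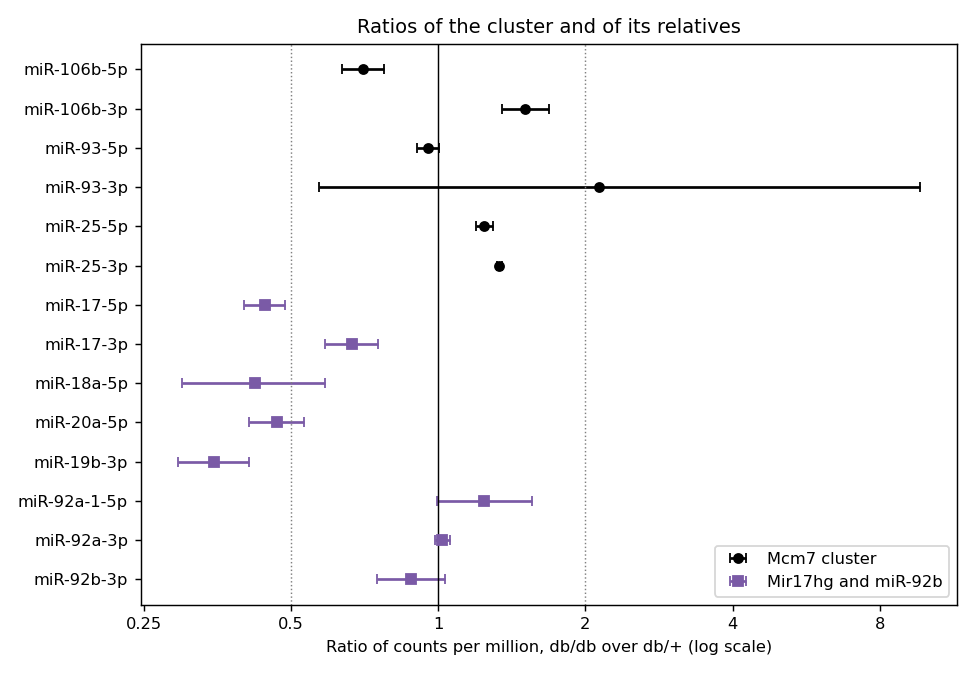
Ratio of CPM, db/db over db/+, on a log scale with 95% counting intervals for the 6 arms of the Mcm7 cluster (circles) and for relatives with at least 50 counts in a library (squares); dotted lines mark 2-fold. The Mcm7 arms lie between 0.703 and 2.13, and 4 of the relatives lie below 0.5.

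The microRNAs most like the members in level were found by the distance in log2 CPM over the 2 libraries. Nearest to miR-25-3p were miR-206-3p, with 2764 CPM in db/db and 2473 CPM in db/+, and miR-99b-5p, with 2072 CPM in db/db and 1665 CPM in db/+. Nearest to miR-93-5p were miR-664-5p and miR-342-3p, with ratios of 0.882 and 1.15. For miR-106b-5p the nearest were miR-28a-5p and miR-28c, which had identical counts and a ratio of 0.842. For miR-106b-3p they were miR-574-5p, with a ratio of 1.67 (1.48 to 1.89), and miR-299b-3p, with 1.22 (1.09 to 1.38). Distances over only 2 libraries describe similar levels and nothing more.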

How the data were processed

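The authors deposited raw read counts per mature microRNA for each library, per the file headers, and TMM-normalized reads rounded to whole numbers. These normalized reads were treated as a score, deposited by the authors and used in 1 alternative scaling. Novoalign, edgeR and mm10 appear in the submitters' processing notes. The sources used here do not give trimming, mismatch limits or the treatment of reads matching several names. Counts were scaled to each library's total (CPM), and ratios of db/db over db/+ carry exact conditional (Clopper-Pearson) 95% intervals, computed with SciPy 1.17.1. Shares carry Clopper-Pearson intervals, and quotients of within-library ratios exact conditional intervals of the odds ratio. With 1 library per group edgeR's quasi-likelihood test had no residual degrees of freedom and was not run. The size rule was a ratio of at least 2 or at most 0.5 with at least 50 counts in a library. Alternative scaling factors came from edgeR 4.0.16 and DESeq2 1.42.0. The members, lists, limits and named microRNAs (all members, seed and paralog relatives past the floor, nearest levels and nearest arm changes) were chosen with earlier results of these data known. Hosts were taken from GENCODE M21.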

Additional observations from a re-analysis of the deposited data

How the results depend on the processing

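Each other scaling shifted the cluster's ratio up by 0.06 to 0.10 on the log2 scale; that of miR-93-3p was 2.13 as reported and 2 with the deposited normalized reads, which are rounded. With edgeR TMM, DESeq2, upper-quartile factors, the total without the 10 most abundant microRNAs and the deposited normalized reads, in that order, the cluster ratio was 1.379, 1.382, 1.388, 1.352 and 1.379. The leading arms had 1.381, 1.384, 1.390, 1.354 and 1.381, and the passenger arms 1.351, 1.354, 1.360, 1.325 and 1.351. The AAAGUGC seed had 0.791, 0.793, 0.797, 0.776 and 0.791, and the AUUGCAC seed 1.379, 1.382, 1.388, 1.352 and 1.379. With the GC trend removed the values were 1.268 for the cluster, 1.286 for the leading arms, 1.064 for the passenger arms, 1.271 for the AUUGCAC seed and -0.84 for the Mir17hg median log2 ratio, which was also -0.84 at a floor of 10 counts. Removing that trend from the arms, and leaving miR-25-3p out of the sum, were chosen after seeing the data. The first, done on the db/db values alone, gave differences in 5p share of -9.60 points for miR-106b and -1.48 for miR-25. With it 0 hairpins of the cluster passed 10 points, and as counted 0 passed a limit of 20 points. The second gave 1.10. Of the members, 1 passed 2-fold with no floor (miR-93-3p), and 1 passed a limit of 1.5-fold (miR-106b-3p). In leading arms alone, the share of miR-25 differed by 2.33 points, against 1.99 with both arms. No ratio whose interval excluded 1 crossed 1 under the alternatives run for the members, seeds and paralogs. With the GC trend removed from db/db alone, miR-106b had a 5p share of 55.3% there, so its major arm no longer differed between libraries. The adjustment of db/+ instead was not run. No paired analysis was possible because there was only 1 library per group, so replicates could not be left out either. Depth limits miR-93-3p most. Thresholds and scalings move values by construction, and for the rest the cause was not tested.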
